A study of Homo sapiens with 24 samples.

Results

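The genes described here are 9 steroid and other nuclear receptor genes, *PGR*, *NR3C1*, *RARA*, *RARG*, *VDR*, *PPARG*, *ESRRA*, *NR2F2* and *NR2F6*, of the 60605 genes in the count table. They were chosen by name, with no measured value in the rule but with earlier results of these data known. *ESR1*, the estrogen receptor gene that the study is largely about, is not among them. All 9 were found in the table by symbol, and all 9 passed the filter on low counts, as did 31 of the 39 other human nuclear receptor genes. The data are PRO-seq (precision run-on sequencing) libraries of the dTAG-TRPS1 T47D Clones 28, 35 and 39. PRO-seq sequences the ends of nascent RNA at which polymerases were working, so a gene's count reflects transcription in progress, not mature RNA or protein. T47D is a luminal, hormone receptor-positive breast cancer cell line, and the comparison of treatments asks which genes change in transcription soon after the transcriptional repressor TRPS1 is degraded. The 24 libraries form 6 groups of 4 replicates. Each clone was treated for 90 minutes with 0.1% v/v DMSO or with 100 nM dTAG-13, a degrader that targets the FKBP-tagged TRPS1 for ubiquitination. All 6 groups carry the tag at the endogenous *TRPS1* locus with the remaining copies of the gene knocked out, each line is a single clone picked under hygromycin, and all of them descend from an earlier puromycin-selected clone. Cells were grown in serum with insulin and were not starved of hormone. No untagged cells were treated in these libraries, so an effect of the compound itself and an effect of TRPS1 loss cannot be told apart, and the libraries hold no measure of the TRPS1 protein.

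Nuclear receptors are transcription factors with a zinc finger DNA-binding domain and, in most members, a pocket for a small lipophilic ligand. Steroid receptors such as the progesterone and glucocorticoid receptors wait in the cytoplasm or nucleus with chaperones and bind DNA as dimers after hormone arrives, whereas retinoic acid, vitamin D and PPAR receptors sit on DNA with the retinoid X receptor and exchange corepressors for coactivators on ligand. ESRRA, NR2F2 and NR2F6 are orphan receptors, which have no established natural ligand. In luminal breast cells *PGR* is a well-known target gene of the estrogen receptor, and *RARA* is estrogen-induced as well. The data here are the transcription of the receptor genes and say nothing of how active the receptors are.

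The promoters of *PGR* and *RARA* are shown first, since *PGR* had the highest transcription of the 9 genes and the widest differences between clones among the genes that passed that test, and *RARA* was the gene of the 9 that passed the test of treatment once the replicate pairs were in the model. The *ESRRA* promoter is shown beside them for a gene that differed between clones and has neither motif. RefSeq windows on GRCh38.p14 at the main (MANE) transcript start were given for 6 of the 9 genes, all but *VDR*, *NR2F2* and *NR2F6*. The 250 bases before the start are printed 5′ to 3′ on the gene's strand, with motif matches in capitals. The motifs searched on both strands were the GATA motif, the family of sites that TRPS1 binds (AGATAA with its variants AGATAG and TGATAA and also TGATAG), the nuclear receptor half-site AGGTCA and the steroid receptor half-site AGAACA.
PGR: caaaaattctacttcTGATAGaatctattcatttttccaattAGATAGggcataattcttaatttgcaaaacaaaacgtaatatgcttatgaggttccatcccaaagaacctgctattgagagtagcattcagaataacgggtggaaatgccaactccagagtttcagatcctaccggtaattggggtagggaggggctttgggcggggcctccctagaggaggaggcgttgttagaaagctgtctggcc
RARA: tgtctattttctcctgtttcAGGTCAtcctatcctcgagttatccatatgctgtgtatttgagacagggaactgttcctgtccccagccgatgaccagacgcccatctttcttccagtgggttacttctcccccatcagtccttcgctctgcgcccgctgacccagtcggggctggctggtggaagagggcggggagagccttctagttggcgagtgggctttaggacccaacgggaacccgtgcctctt
ESRRA: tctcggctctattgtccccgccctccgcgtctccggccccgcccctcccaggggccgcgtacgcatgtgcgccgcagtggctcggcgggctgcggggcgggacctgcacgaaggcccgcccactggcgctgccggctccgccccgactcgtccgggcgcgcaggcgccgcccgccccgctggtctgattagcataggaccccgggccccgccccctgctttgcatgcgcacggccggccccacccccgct

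The *PGR* window, chr11:101129814-101130063 on the minus strand, held 2 GATA matches, TGATAG from -235 to -230 and AGATAG from -208 to -203 relative to the start, and no AGGTCA or AGAACA. Of 14473 promoters of the same length, 16.32% held at least 1 GATA match and 3.02% held 2 or more. The *RARA* window, chr17:40308930-40309179 on the plus strand, held 1 AGGTCA from -230 to -225 and no GATA match. AGGTCA was present in 9.68% of the promoters and AGAACA in 8.48%. *PPARG* also had 1 AGGTCA, from -24 to -19, and *NR3C1*, *RARG* and *ESRRA* (chr11:64305274-64305523, plus strand) held none of the motifs in this window. A match describes letters only, and binding was not measured in these libraries. The *PGR* window had 43.6% G and C, the *RARA* window 56.4% and the *ESRRA* window 78.0%, against a median of 63.6% over all promoters.

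The total count of a library ranged from 3226718 to 9575803 (median 5042122). Any 2 replicates of one group differed by more than counting error (36 pairs of libraries, chi-square over its degrees of freedom from 1.65 to 13.6). The 10 luminal breast markers summed to between 3839 and 6210 CPM (reads of a gene relative to all reads of its library, with TMM factors) in a library, while the 6 basal markers summed to 28.5 to 61.9 CPM, the 6 fibroblast markers to 12.1 to 23.7 CPM, the 5 leukocyte markers to 16.6 to 28.7 CPM and the 4 endothelial markers to 3.86 to 8.75 CPM. *KRT5* and *KRT17* of the basal list and *LUM* of the fibroblast list had at most 3 counts in every library. With dTAG-13, 2 of the 10 luminal markers passed the test over the 3 clones, next to 0.551% of all genes, *KRT19* at -0.13 (adjusted p = 0.0346, edgeR) and *SPDEF* at -0.14 (adjusted p = 0.0765), and their part in the results below was not tested. In a bulk library, fewer cells of a type and less RNA per cell cannot be told apart. Replicates were dishes of the same clone treated and collected at different times of a single day, so p-values measure the spread between such dishes, not between independent clones.

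The 9 genes covered a wide range of transcription. *PGR* was by far the most transcribed, with 5291 to 11519 counts in a library, and *PPARG*, a receptor best known from fat cells, was barely transcribed, with 3 to 17 counts. Per kilobase of annotated gene span, the median level over the 24 libraries was 15.8 CPM for *PGR*, 4.40 for *NR2F2*, 4.25 for *RARA*, 3.51 for *ESRRA*, 3.36 for *RARG*, 2.51 for *NR2F6*, 1.23 for *VDR*, 0.193 for *NR3C1* and 0.0121 for *PPARG*. This order placed *PGR* above *NR2F2* in 24 of 24 libraries and *RARA* above *ESRRA* in 22 of 24. Neighbouring positions were not settled between *NR2F2* and *RARA* (14 of 24 libraries) or between *ESRRA* and *RARG* (13 of 24), whereas *RARG* was above *NR2F6* in 23 of 24 and each lower step held in 24 of 24. At these depths counting alone gives a coefficient of variation of 1.14% for *PGR*, 3.16% for *RARA*, 3.93% for *VDR*, between 5.21% and 7.98% for *RARG*, *NR2F2*, *ESRRA*, *NR2F6* and *NR3C1*, and 33.3% for *PPARG*.

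**Figure D1:**
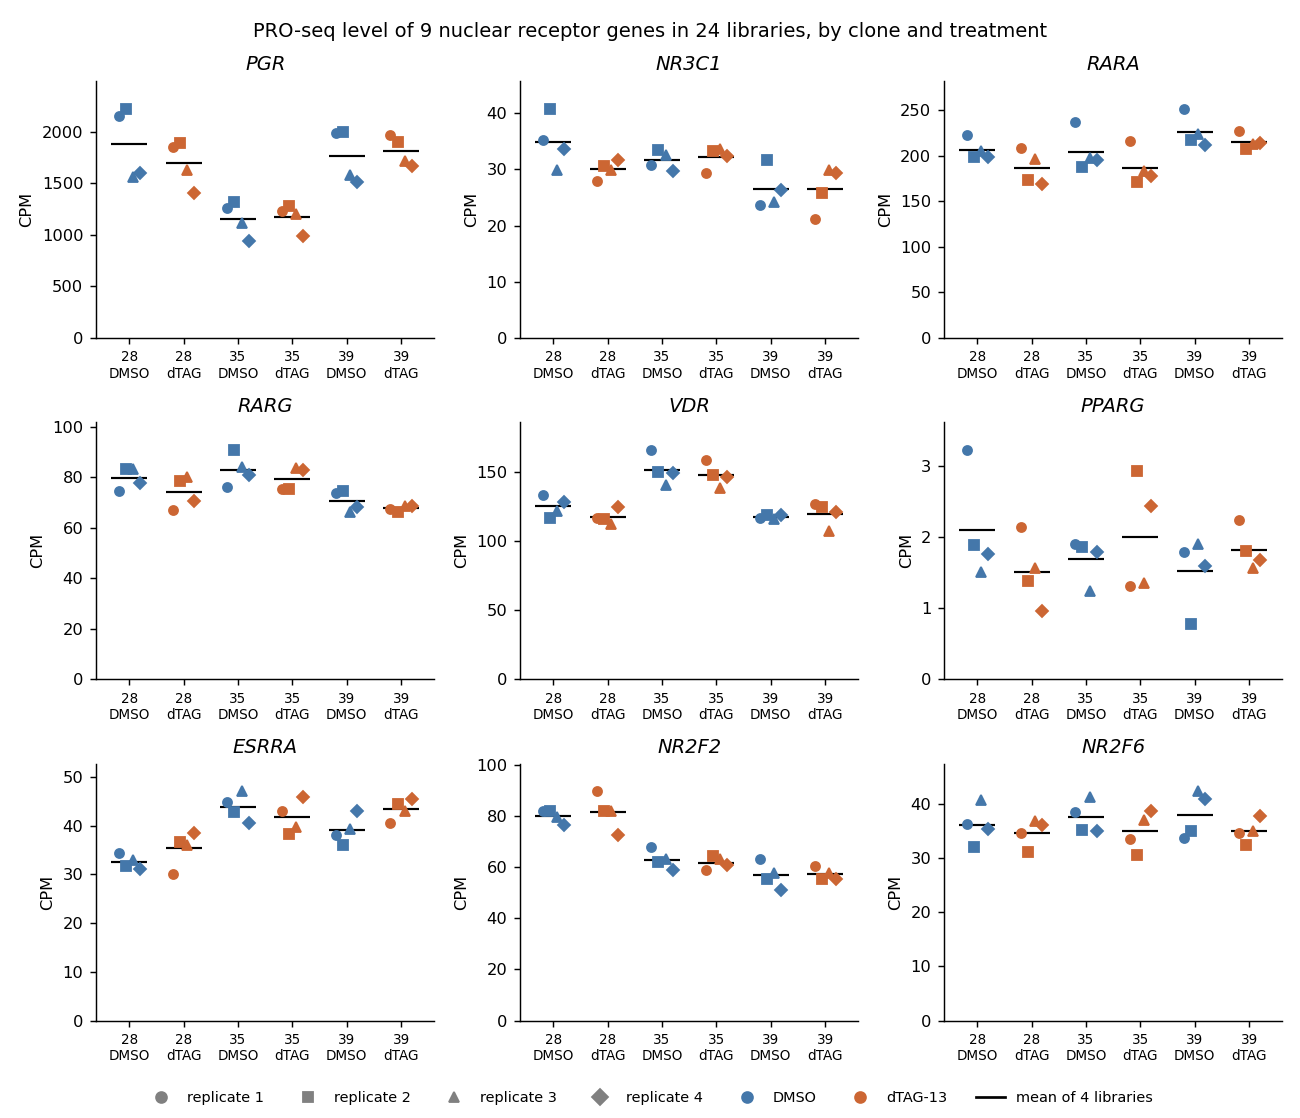
PRO-seq level in CPM (y axis, starting at 0) of each of the 9 genes in the 24 libraries, by clone and treatment (x axis), with a symbol for each replicate number and a line at the mean of 4 libraries. *PGR* lies between 943 and 1315 CPM in all Clone 35 libraries and above them in every library of Clones 28 and 39, while the DMSO and dTAG-13 groups of each clone overlap for every gene.

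The comparison of dTAG-13 with DMSO over the 3 clones asks whether any of these receptor genes is among those that respond within 90 minutes. With clone and treatment in the model, 0 of the 9 genes passed an adjusted p of 0.1 in edgeR's quasi-likelihood test, against 0.551% of the 22326 genes tested. Before adjustment 2 of the 9, *RARA* and *RARG*, had p under 0.05 against 1411 of the 22326 genes, and DESeq2 also called 0 of the 9. The methods say that treated and control cells were collected simultaneously, and replicates at different times of a day. Replicate numbers were therefore taken to pair the libraries within a clone, which the sources used here do not state outright. With the 12 pairs in the model, *RARA* passed and no other of the 9 did, against 2.33% of all genes. The median log2 change of the 9 genes was -0.032 in both fits, next to -0.0018 and -0.0019 over all genes tested.

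*RARA* (ENSG00000131759, chr17:40309180-40357643, plus strand) encodes retinoic acid receptor alpha, which switches on differentiation genes when retinoic acid binds. *RARA* in Clone 28 was at 223, 198, 205 and 199 CPM in DMSO and 208, 173, 197 and 169 CPM in dTAG-13, each for replicates 1 to 4. *RARA* in Clone 35 was at 238, 188, 197 and 195 CPM in DMSO and 216, 171, 183 and 178 CPM in dTAG-13. *RARA* in Clone 39 was at 252, 217, 224 and 212 CPM in DMSO and 227, 207, 213 and 214 CPM in dTAG-13. The treated library was the lower of its pair in 11 of 12 pairs (4 of 4 in Clone 28, 4 of 4 in Clone 35 and 3 of 4 in Clone 39), but the DMSO and dTAG-13 groups overlapped in each clone. The change over the 3 clones was -0.11 (SE 0.043, adjusted p = 0.521, edgeR) without the pairs and -0.11 (SE 0.026, adjusted p = 0.00556) with them, which is 7.62% lower with a 95% interval from -0.17 to -0.062 on the log2 scale. DESeq2 with the pairs gave an adjusted p of 0.0784. With the pairs, the call was lost without Clone 28 (change -0.099, adjusted p = 0.281) and without Clone 35 (-0.11, adjusted p = 0.126), it held without Clone 39 (-0.14, adjusted p = 0.0100) and it held in 12 of 12 fits that left out 1 pair (adjusted p from 0.00238 to 0.0317). *RARG* (ENSG00000172819, chr12:53210567-53232980, minus strand), the gamma receptor of the same ligand and more typical of skin, was lower in 9 of 12 pairs. Its change of -0.076 (SE 0.033, adjusted p = 0.384 with the pairs) did not pass.

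*PGR* (ENSG00000082175, chr11:101029624-101129813, minus strand) encodes the progesterone receptor, a clinical marker of hormone receptor-positive breast cancer. *PGR* in Clone 28 was at 2154, 2227, 1561 and 1597 CPM in DMSO and 1854, 1890.4, 1631 and 1409 CPM in dTAG-13, each for replicates 1 to 4. *PGR* in Clone 35 was at 1261, 1315, 1114 and 943 CPM in DMSO and 1228, 1278, 1206 and 985 CPM in dTAG-13. *PGR* in Clone 39 was at 1991, 1998, 1579 and 1509 CPM in DMSO and 1969, 1906, 1716 and 1666 CPM in dTAG-13. Within every clone the treated and control ranges overlapped, and 7 of 12 pairs were lower with dTAG-13. The change over the clones was -0.032 (SE 0.080, adjusted p = 1.00) without the pairs, and with them it was -0.025 with a 95% interval from -0.11 to 0.057 (adjusted p = 0.910). In Clone 28 the treated library was lower in 3 of 4 pairs, with a change of -0.14 (SE 0.044, adjusted p = 0.226 with the pairs), next to 0.024 in Clone 35 and 0.045 in Clone 39. The difference of the response between clones did not pass the test (range 0.19, adjusted p = 1.00).

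*NR3C1* (ENSG00000113580, chr5:143277931-143435512, minus strand) encodes the glucocorticoid receptor, which mediates the cortisol response in most tissues. *NR3C1* in Clone 28 was at 35.3, 40.8, 29.9 and 33.6 CPM in DMSO and 27.9, 30.7, 29.95 and 31.6 CPM in dTAG-13, each for replicates 1 to 4. *NR3C1* in Clone 35 was at 30.8, 33.5, 32.5 and 29.7 CPM in DMSO and 29.4, 33.3, 33.6 and 32.4 CPM in dTAG-13. *NR3C1* in Clone 39 was at 23.7, 31.7, 24.3 and 26.4 CPM in DMSO and 21.2, 25.7, 29.98 and 29.3 CPM in dTAG-13. The treated library was lower in 7 of 12 pairs and the groups overlapped in each clone. Over the 3 clones the change was -0.061 (SE 0.062, adjusted p = 0.999), with an interval from -0.19 to 0.064, and in Clone 28 alone it was -0.21 (SE 0.10, adjusted p = 1.00) and did not pass.

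The intervals of the other 5 genes all included 0. The vitamin D receptor gene *VDR* was at -0.032 (95% interval -0.11 to 0.041) and was lower in 9 of 12 pairs, 8 of them in Clones 28 and 35. *NR2F2* was at 0.0029 (-0.075 to 0.081) and higher in 8 of 12 pairs, and *NR2F6* was at -0.086 (-0.19 to 0.022) and lower in 9 of 12, both orphan receptors of the COUP-TF family that mostly act as repressors. *ESRRA*, a regulator of mitochondrial genes, was at 0.064 (-0.038 to 0.17) and was higher in 4 of 4 pairs of Clone 39 but lower in 3 of 4 pairs of Clone 35. *PPARG* had an interval from -0.40 to 0.39 at its 3 to 17 counts, so that a change of that size was not detectable at this depth. None of these 5 passed in any clone.

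Taken clone by clone, the test called 0 of the 9 genes in Clone 28, where 0.0537% of all genes passed, and 0 of the 9 in Clones 35 and 39, where 0% did. Before adjustment 1 of the 9 genes, *NR3C1*, had p under 0.05 in Clone 28 and 0 in Clones 35 and 39. Of the 22326 genes tested, 1078, 646 and 754 did in Clones 28, 35 and 39. DESeq2 called 0 of the 9 in each clone and 34, 1 and 1 of all genes. The response differed between clones for 0 of the 9 genes and 0% of all genes (0 of the 9 and 407 of all at an unadjusted p under 0.05, and 0 of both in DESeq2). With the pairs in the model the 9 genes still gave 0 calls in each clone, while 263, 21 and 16 of all genes passed the adjusted p of 0.1. At an unadjusted p under 0.05 the 9 genes gave 3, 1 and 0. The counts of all genes at that unadjusted threshold are not given here, so an excess in the 9 cannot be read from these counts.

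**Figure D2:**
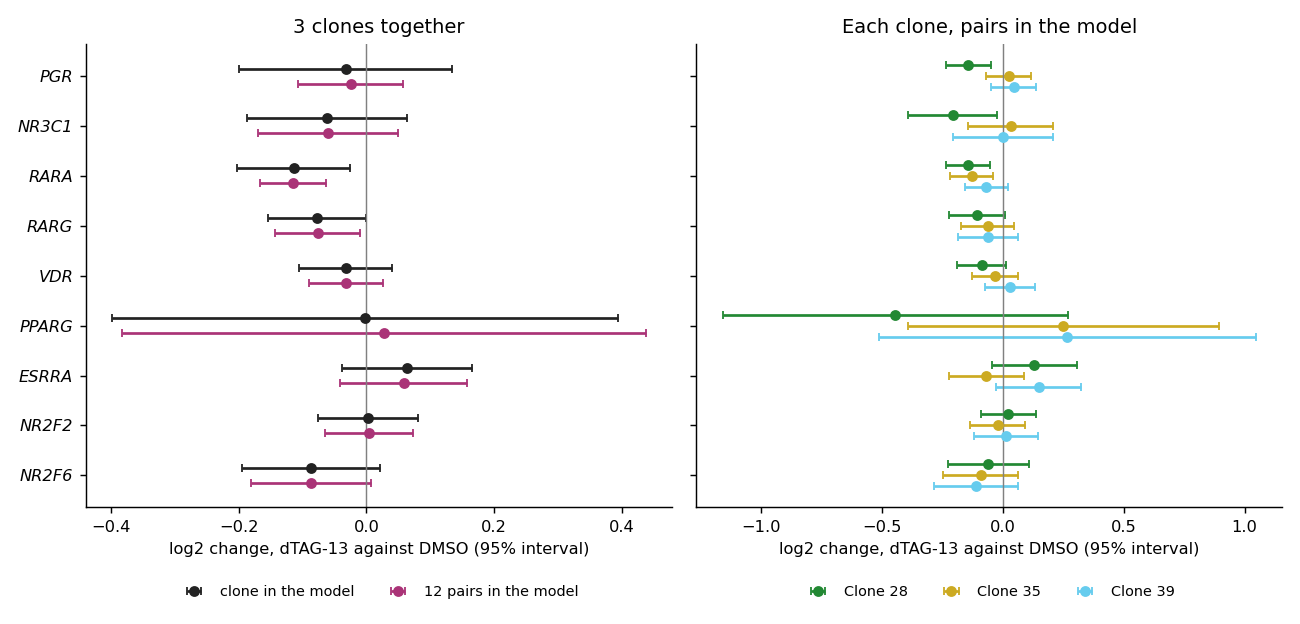
Log2 change with dTAG-13 against DMSO (x axis) of the 9 genes (y axis), as points with 95% intervals, for the 3 clones together without and with the pairs in the model (left) and for each clone with the pairs (right). The *RARA* interval lies below 0 on the left in both fits, from -0.20 to -0.026 and from -0.17 to -0.062. So does that of *RARG*, from -0.15 to -0.00027 and from -0.14 to -0.010, though *RARG* did not pass in either fit. *PPARG* has the widest interval in both panels.

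The DMSO libraries show how far the clones differed before TRPS1 was degraded. Of the 9 genes, 6 differed between clones (*PGR*, *NR3C1*, *RARG*, *VDR*, *ESRRA* and *NR2F2*), against 28.5% of all genes tested. The call of *RARG* was lost without Clone 39 DMSO replicate 3 or 4 (adjusted p = 0.108 and 0.107, edgeR), and with 1 library left out 5 to 7 of the 9 passed. With the replicate number in the model *RARA* made it 7 of 9, against 39.7%. Each clone is a single line, and what distinguishes the clones cannot be separated from how each was derived. The median range between the clones' DMSO levels was 0.40 on the log2 scale over the 9 genes and 0.27 over all genes.

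*PGR* was the gene of the 6 with the widest range, and Clone 35 stood apart from the other clones. Its mean was 1158 ± 167 CPM in Clone 35 (SD, n = 4) against 1885 ± 355 in Clone 28 and 1769 ± 262 in Clone 39, and no Clone 35 library overlapped with either. The difference was -0.70 (SE 0.14, adjusted p = 0.00602, edgeR) for Clone 35 against Clone 28 and 0.61 (SE 0.14, adjusted p = 0.00397) for Clone 39 against Clone 35, while Clones 39 and 28 differed by -0.091 (adjusted p = 0.727). Against Clone 28, Clone 35 was therefore 38.5% lower. *PGR-AS1*, a noncoding RNA that overlaps *PGR* by 737 bases on the other strand, differed between clones as well (adjusted p = 0.0737), with -0.25 for Clone 35 and -0.24 for Clone 39 against Clone 28. *ARHGAP42*, the nearest gene to the left, was at -0.19 and 0.45 in those comparisons (adjusted p = 0.000957), and *TRPC6* to the right at 8.9e-05 and 0.21 (adjusted p = 0.712).

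*NR2F2* (ENSG00000185551, chr15:96325938-96340263, plus strand), known from vessel and mesenchyme development and also active in luminal breast cells, was highest in Clone 28. *NR2F2* in Clone 28 was at 81.8, 81.9, 79.6 and 76.6 CPM in DMSO and 89.6, 82.1, 81.9 and 72.6 CPM in dTAG-13, each for replicates 1 to 4. *NR2F2* in Clone 35 was at 67.7, 62.1, 63.1 and 58.9 CPM in DMSO and 58.9, 64.2, 63.0 and 60.7 CPM in dTAG-13. *NR2F2* in Clone 39 was at 63.1, 55.3, 57.8 and 51.1 CPM in DMSO and 60.3, 55.4, 57.8 and 55.3 CPM in dTAG-13. All Clone 28 libraries in DMSO were above all of Clones 35 and 39, which overlapped. Clone 35 was at -0.35 (SE 0.068, adjusted p = 0.00125) and Clone 39 at -0.49 (SE 0.070, adjusted p = 1.42e-06) against Clone 28. The antisense gene *NR2F2-AS1*, which overlaps it by 1424 bases, was at -0.38 and -0.36 in the same comparisons (adjusted p = 0.0194), and ENSG00000275322, 2690 bases to the right, at -0.55 and -0.59 (adjusted p = 0.0155). To the left, ENSG00000275443 did not pass (adjusted p = 0.162).

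*VDR* (ENSG00000111424, chr12:47841537-47943048, minus strand) was highest in Clone 35. *VDR* in Clone 28 was at 133, 116, 122 and 128 CPM in DMSO and 117, 116, 112 and 124 CPM in dTAG-13, each for replicates 1 to 4. *VDR* in Clone 35 was at 166, 149.7, 140.3 and 149 CPM in DMSO and 158, 148, 138 and 146 CPM in dTAG-13. *VDR* in Clone 39 was at 117, 119, 116 and 118 CPM in DMSO and 126, 125, 107 and 121 CPM in dTAG-13. The lowest Clone 35 library in DMSO, at 140.3 CPM, was above the highest of Clones 28 and 39, at 133 and 119 CPM. Clone 35 was 0.28 (SE 0.063, adjusted p = 0.00639) above Clone 28, and Clone 39 was at -0.36 (SE 0.063, adjusted p = 3.73e-05) against Clone 35. Clones 39 and 28 differed by -0.088 (adjusted p = 0.369). ENSG00000278385, antisense within *VDR*, differed with the same order of clones, 0.17 for Clone 35 and -0.55 for Clone 39 against Clone 28 (adjusted p = 0.00567).

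*ESRRA* (ENSG00000173153, chr11:64305497-64316743, plus strand) was lowest in Clone 28. *ESRRA* in Clone 28 was at 34.3, 31.6, 32.9 and 31.0 CPM in DMSO and 30.1, 36.7, 36.1 and 38.4 CPM in dTAG-13, each for replicates 1 to 4. *ESRRA* in Clone 35 was at 44.8, 42.8, 47.04 and 40.5 CPM in DMSO and 43.0, 38.3, 39.7 and 45.9 CPM in dTAG-13. *ESRRA* in Clone 39 was at 38.1, 36.0, 39.2 and 43.0 CPM in DMSO and 40.6, 44.5, 43.1 and 45.4 CPM in dTAG-13. In DMSO no library of Clone 28 reached those of Clone 35 or 39, and Clones 35 and 39 overlapped. Clone 35 was 0.43 (SE 0.085, adjusted p = 0.00145) and Clone 39 0.27 (SE 0.088, adjusted p = 0.0235) above Clone 28. The second of these calls was lost without Clone 39 DMSO replicate 4 (0.22, adjusted p = 0.102). *TRMT112*, which overlaps *ESRRA* by 284 bases on the other strand, did not pass between clones (adjusted p = 0.284), and neither did *CATSPERZ* and *PRDX5* on its sides (adjusted p = 0.376 and 0.295).

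Clone 39 had the lowest transcription of *NR3C1* and *RARG*. For *NR3C1* the groups overlapped, with means of 34.9 ± 4.55, 31.6 ± 1.69 and 26.5 ± 3.62 CPM (SD, n = 4) in Clones 28, 35 and 39. The difference of -0.40 (SE 0.11, adjusted p = 0.00614) between Clones 39 and 28 passed, and that of -0.26 between Clones 39 and 35 (adjusted p = 0.0964) passed narrowly and was lost in 16 of 24 fits that left out 1 library. The library values of *RARG* were as follows. *RARG* in Clone 28 was at 74.6, 83.2, 83.3 and 77.6 CPM in DMSO and 67.1, 78.5, 80.0 and 70.4 CPM in dTAG-13, each for replicates 1 to 4. *RARG* in Clone 35 was at 76.3, 90.8, 84.0 and 81.0 CPM in DMSO and 75.2, 75.3, 83.6 and 82.8 CPM in dTAG-13. *RARG* in Clone 39 was at 73.8, 74.6, 66.2 and 68.1 CPM in DMSO and 67.3, 66.4, 68.7 and 68.7 CPM in dTAG-13. In DMSO, Clone 39 was below every Clone 35 library, and the Clone 28 range overlapped with both. Clone 39 was at -0.23 (SE 0.067, adjusted p = 0.0118) against Clone 35 and at -0.17 (SE 0.069, adjusted p = 0.0724) against Clone 28. The second of these calls was lost without Clone 28 DMSO replicate 2 or 3 or Clone 39 DMSO replicate 3 or 4 (adjusted p = 0.142, 0.176, 0.169 and 0.165) and in DESeq2 (0.124).

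By pair of clones, 4 of the 9 genes passed for Clone 35 against Clone 28 (5.25% of all genes, 11.9% with the replicate number), 4 for Clone 39 against Clone 28 (26.7% and 35.2%) and 4 for Clone 39 against Clone 35 (22.6% and 30.5%). The replicate number changed those counts to 4, 5 and 6. *RARA* was then called in both comparisons with Clone 39, at 0.13 (SE 0.045, adjusted p = 0.0196) against Clone 28 and 0.15 (SE 0.044, adjusted p = 0.00822) against Clone 35, and *NR2F2* between Clones 39 and 35 (-0.15, adjusted p = 0.0657). *NR2F6* and *PPARG* passed in no comparison of DMSO levels, with ranges of 0.070 and 0.42.

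**Figure D3:**
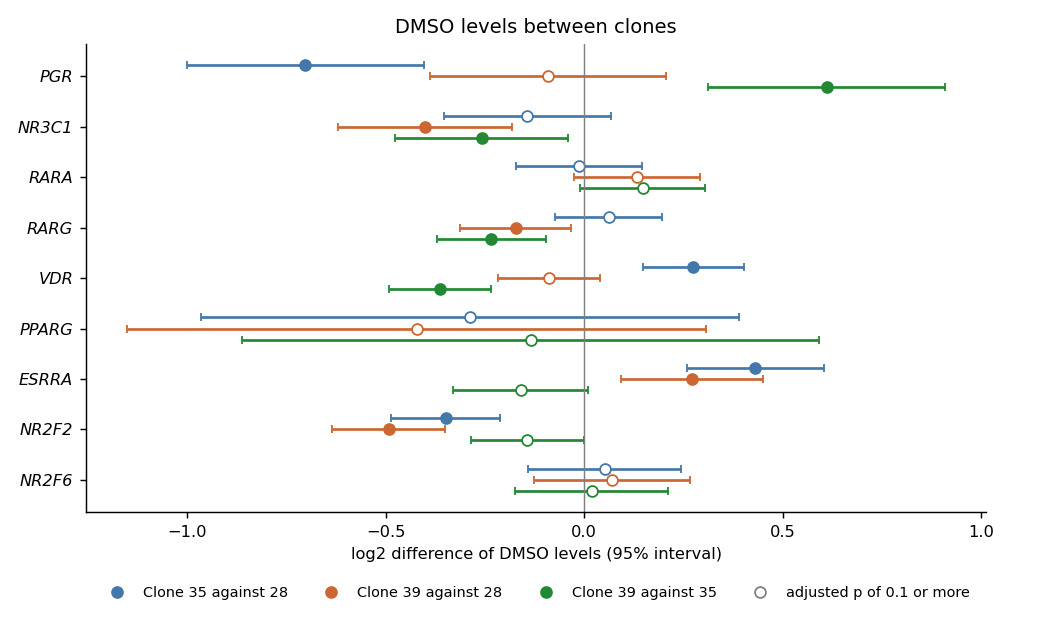
Log2 difference of DMSO levels (x axis) between each pair of clones for the 9 genes (y axis), with 95% intervals, filled where the adjusted p was under 0.1. *PGR* in Clone 35 sits at -0.70 against Clone 28, *NR2F2* is below 0 in both comparisons with Clone 28, and *ESRRA* is above 0 in both.

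Replicate numbers were compared across the 6 groups, since the dishes were harvested at several times in one day. Of the 9 genes, 5 differed between the numbers (*RARA*, *PGR*, *NR2F6*, *VDR* and *NR2F2*), against 37.2% of all genes. Whether a number marks the same hour in the 3 clones is not given in the sources used here, and any handling shared by dishes with the same number cannot be told apart from the hour. *PGR* was above its group mean in replicates 1 and 2 of 6 of 6 groups, by 0.14 ± 0.049 and 0.17 ± 0.063 on the log2 scale (SD over 6 groups), and below it in replicate 4 of 6 of 6 groups, by -0.22 ± 0.057. In every group its replicates 3 and 4 were both lower than replicates 1 and 2, a difference of -0.31 (SE 0.033, adjusted p = 1.38e-05 for the 4 numbers, edgeR), or 19.4% lower.

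*RARA* had another pattern. Replicate 1 was the highest of its group in 6 of 6 groups, by 0.16 ± 0.055 above the group mean, and replicates 2 and 4 were below the mean in 6 of 6 (adjusted p = 2.19e-07). The deviation of replicate 1 stands next to a change of -0.11 with dTAG-13. *NR2F6* (ENSG00000160113, chr19:17231883-17245919, minus strand) was below its group mean in replicate 2 of 6 of 6 groups (-0.13 ± 0.040) and above it in replicate 3 of 6 of 6 (0.11 ± 0.064), with an adjusted p of 0.0117. *NR2F6* in Clone 28 was at 36.3, 32.1, 40.7 and 35.4 CPM in DMSO and 34.6, 31.0, 36.7 and 36.1 CPM in dTAG-13, each for replicates 1 to 4. *NR2F6* in Clone 35 was at 38.4, 35.2, 41.2 and 34.98 CPM in DMSO and 33.5, 30.6, 37.0 and 38.6 CPM in dTAG-13. *NR2F6* in Clone 39 was at 33.7, 35.004, 42.2 and 40.8 CPM in DMSO and 34.6, 32.4, 34.97 and 37.7 CPM in dTAG-13. The gene ENSG00000269095 shares 9980 bases with it on the same strand and had a median of 173 counts next to 179.5 for *NR2F6*, so the reads of these genes cannot be told apart and the values are uncertain to that extent.

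The calls of *VDR* (adjusted p = 0.0235, lowest in replicate 3, below the mean in 6 of 6 groups) and *NR2F2* (0.0393, lowest in replicate 4, below the mean in 6 of 6 groups) were less firm. In DESeq2 3 of the 9 genes passed, and *NR2F2* and *NR2F6* did not (adjusted p = 0.190 and 0.103). *NR2F2* also failed without 1 of 3 single libraries, which were Clone 28 dTAG-13 replicate 1, Clone 28 dTAG-13 replicate 4 and Clone 39 DMSO replicate 1. Leaving out Clone 35 ended the call of *VDR* (adjusted p = 0.290), and leaving out Clone 28 ended those of *NR2F2* (0.343) and *NR2F6* (0.125), the former also without Clone 39 (0.182). Within the DMSO libraries alone and within the dTAG-13 libraries alone, 2 of the 9 passed, *PGR* and *RARA* in both. The counts of all genes in DESeq2 and in dTAG-13 alone stand in the last section, and that in DMSO alone is not given here. An excess in the 9 cannot be read from these counts. *NR3C1*, *RARG*, *ESRRA* and *PPARG* did not pass (adjusted p = 0.130, 0.188, 0.680 and 0.591).

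**Figure D4:**
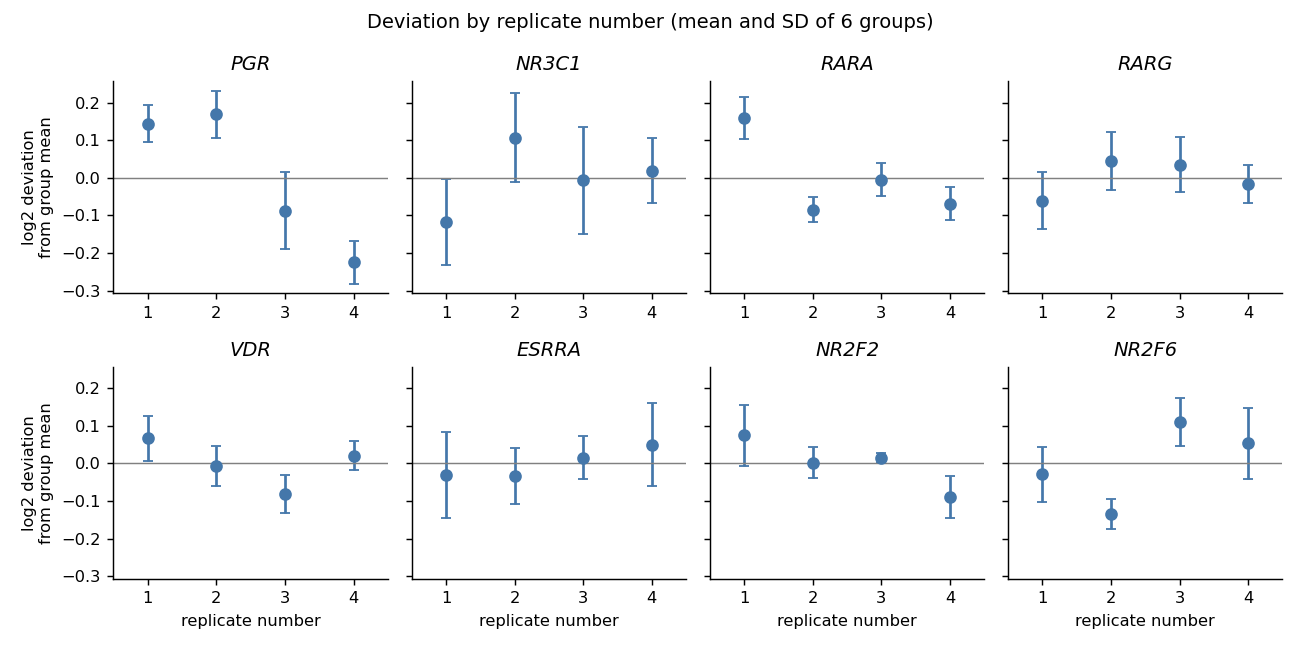
Log2 deviation from the group mean (y axis) by replicate number (x axis), as the mean and SD of 6 groups, for 8 of the 9 genes. *PPARG*, whose SDs reach 0.49, is not drawn. *PGR* is above 0 in replicates 1 and 2 and lowest in replicate 4, and *RARA* is above 0 in replicate 1 only.

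*PPARG* (ENSG00000132170, chr3:12287368-12434356, plus strand) carried too few reads for any of these comparisons. *PPARG* in Clone 28 was at 3.23, 1.89, 1.51 and 1.77 CPM in DMSO and 2.15, 1.38, 1.57 and 0.965 CPM in dTAG-13, each for replicates 1 to 4. *PPARG* in Clone 35 was at 1.91, 1.86, 1.24 and 1.797 CPM in DMSO and 1.31, 2.93, 1.36 and 2.44 CPM in dTAG-13. *PPARG* in Clone 39 was at 1.796, 0.772, 1.91 and 1.60 CPM in DMSO and 2.24, 1.802, 1.56 and 1.68 CPM in dTAG-13. Groups overlapped throughout, the highest and the lowest library being 3.23 and 0.772 CPM, both in DMSO.

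The 39 other nuclear receptor genes show where the 9 stand in their family. With dTAG-13, 0 of the 31 that were tested passed without the pairs, against 0.551% of all genes. Their median change was 0.011, and 2 had an unadjusted p under 0.05, against 1411 of the 22326 genes tested. *ESR1* was at 0.061 (adjusted p = 0.202) with the pairs, and *RXRA*, the retinoid X receptor gene whose product pairs with RARA and VDR, was lower in 10 of 12 pairs without passing. *RARB*, the beta retinoic acid receptor gene at 15 to 50 counts in a library, was higher in 11 of 12 pairs but did not pass without the pairs. Its mean log2 change over the pairs was 0.23 with an SD of 0.52. The pair of Clone 35 replicate 3 was at -1.21, and the Clone 35 mean was 6.13 CPM in DMSO and 5.71 CPM in dTAG-13.

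In DMSO, 15 of the 31 other receptors differed between clones, against 28.5% of all genes. The 5 with the smallest p were *NR5A2*, *NR6A1*, *NR2F1*, *NR2C2* and *NR4A1*. *NR2F1*, the closest relative of *NR2F2*, was at 5.89 to 8.38 CPM in Clone 28, 1.67 to 4.02 in Clone 35 and 0 to 0.817 in Clone 39. The Clone 39 values rest on 0 to 3 counts in a library. *NR2F2* was at 76.6 to 81.9, 58.9 to 67.7 and 51.1 to 63.1 CPM, and its means had the same order. Its Clones 35 and 39 overlapped, and their difference did not pass without the replicate number (adjusted p = 0.173, edgeR). For replicate numbers 9 of the 31 passed, against 37.2% of all genes, and *ESR1*, *NR6A1* and *ESR2* were among the 5 with the smallest p. *ESR1* was above its group mean in replicates 1 and 2 of 6 of 6 groups and below it in replicate 4 of 6 of 6, as *PGR* was, with replicates 3 and 4 at -0.24 against 1 and 2 (adjusted p = 1.89e-05) next to -0.31 for *PGR*.

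Chaperones that hold steroid receptors ready for hormone, and known target genes of the receptors, were taken as lists. With dTAG-13 and no pairs, 0 of 12 chaperone and co-chaperone genes, 0 of 12 targets of the progesterone and glucocorticoid receptors, 0 of 7 tested retinoic acid receptor targets, 0 of 2 vitamin D receptor targets and 0 of 7 PPAR targets passed in edgeR. Of all genes, 0.551% passed in that fit. At an unadjusted p under 0.05 the counts of these lists were 2, 1, 0, 0 and 1, against 1411 of the 22326 genes tested. Their median changes were -0.033, -0.079, -0.10, -0.044 and 0.0028, next to -0.0018 over all genes. With the pairs, 2.33% of all genes passed. In that fit *ZBTB16*, a transcription factor induced by glucocorticoids and progestins, fell by 0.20 (adjusted p = 0.000409, edgeR, lower in 11 of 12 pairs). *FKBP5*, a co-chaperone that is both a target and a brake of the glucocorticoid receptor and stands in 2 of the lists, fell by 0.087 (adjusted p = 0.0533, lower in 10 of 12), and *CPT1A*, the fatty acid importer of mitochondria and a PPAR target, fell by 0.087 (adjusted p = 0.0537, lower in 12 of 12). Without the pairs the adjusted p was 0.958 for *ZBTB16*, 0.563 for *FKBP5* and 0.507 for *CPT1A*. Fits of these genes with a clone left out are not given here, and a common response of the lists was not tested. No tested retinoic acid or vitamin D receptor target passed in either fit.

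Between clones in DMSO, 3 of 12 chaperones, 5 of 12 progesterone and glucocorticoid receptor targets, 5 of 7 retinoic acid receptor targets, 2 of 2 vitamin D receptor targets and 3 of 7 PPAR targets differed, next to 28.5% of all genes. *FKBP5* was highest in Clone 28 and lowest in Clone 39 (-0.27 for Clone 35 and -0.52 for Clone 39 against Clone 28, adjusted p = 8.83e-08). The *NR3C1* means had this order, but the *NR3C1* difference between Clones 35 and 28 did not pass (adjusted p = 0.608, edgeR). The *PGR* means had another order, with 1885 CPM in Clone 28, 1769 in Clone 39 and 1158 in Clone 35. A link between these levels was not tested. *ZBTB16* was at -2.39 in Clone 39 against Clone 28 (adjusted p = 1.14e-06). Across replicate numbers 7 of 12 chaperones differed, all higher in replicates 3 and 4 than in 1 and 2, next to 37.2% of all genes, as did 6 of 12 progesterone and glucocorticoid receptor targets, 1 of 7 retinoic acid receptor targets, 1 of 2 vitamin D receptor targets and 4 of 7 PPAR targets.

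Genes that overlap on the same strand, such as *NR2F6* and ENSG00000269095, share reads whatever the strand setting, and genes on opposite strands share them only where strand was ignored, which the sources used here do not state. Over the whole table, 2060 genes nested in a longer gene on the other strand had a median read density 0.042 times that of the host, whereas 1011 nested on the same strand had 0.84 times. Beside the antisense genes already named, ENSG00000287644 overlaps *RARA* by 979 bases (51 to 229 counts) and was at 0.021 with dTAG-13 (adjusted p = 0.960 with the pairs). *CDC6* and *GJD3*, the genes on either side of *RARA*, were at -0.037 and -0.036 (adjusted p = 0.824 and 0.968 with the pairs).

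The genes most like each of the 9 were found by the Pearson correlation of log2 CPM over the 24 libraries after each clone's mean was subtracted, among 14692 genes with a mean of at least 50 counts. These libraries share replicate numbers and treatments, so the correlations describe and do not test. *PGR* was most like *CWC27* (r = 0.937) and *GRHL2* (0.931), and *RARA* was most like *PFKFB3* (0.854) and *GSE1* (0.841). *NR3C1* was most like *MGAT5* (0.857) and *SAP30L-AS1* (0.807), *NR2F6* was most like *BRAT1* (0.831) and *SLC7A5* (0.828), and *NR2F2* was most like *THUMPD3* (0.824) and *NEK10* (0.749). For the 4 remaining genes the values were lower, with *PRDM6* (0.776) and *CPEB3* (0.745) for *RARG*, *NCL* (0.741) and ENSG00000246308 (0.733) for *VDR*, *GTF2IP13* (0.737) and *NDUFS8* (0.674) for *ESRRA*, and *CCT6P1* (0.746) and *DKC1* (0.725) for *PPARG*.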

How the data were processed

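PRO-seq libraries of dTAG-TRPS1 T47D Clones 28, 35 and 39, treated for 90 minutes with 0.1% v/v DMSO or 100 nM dTAG-13, were compared (4 replicates in each of 6 groups). The authors deposited whole-number counts of reads per gene, not normalised. The submitters' processing notes name cutadapt 1.8.1, Bowtie2 2.4.4, SAMtools 1.9 and hg38, the methods name bedtools for counting, and the annotation and strand setting of the counting are not given in the sources used here. Symbols and positions came from GENCODE 44, which held 60463 of the 60605 identifiers, and 7268 genes had no read.

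Counts were filtered with filterByExpr (minimum count 10), which left 22326 genes, scaled by TMM and tested with edgeR 4.0.16 (robust quasi-likelihood F test, two-sided, R 4.3.3) with Benjamini-Hochberg adjustment over all genes tested and a threshold of 0.1. The treatment model held clone and treatment, levels in DMSO and responses by clone came from a model of the 6 groups, and replicate numbers were added to that model as a term. Treated and control dishes were collected simultaneously, so replicate numbers were taken to pair libraries within a clone. Deviations of paired libraries from their group means correlated at 0.0926 to 0.318 (mean 0.185) over the 12 pairs, and the treatment models were repeated with these pairs as the replicate block. The models of DMSO levels were repeated with the replicate number as a term shared by the clones. The tests were checked on simulated counts. Alternatives were DESeq2 1.42.0, other scaling and filtering, a threshold of 0.05, and leaving out each library. Each clone was also left out, and fits were made within a treatment or a clone. Leaving out each of the 12 pairs was added after seeing the data. Total counts of 3226718 to 9575803 set the precision.

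The 9 genes and all lists were chosen with earlier results of these data known. Genes outside the 9 were named where they passed the treatment test within their list, as the 5 other receptors with the smallest p, as the 2 most correlated genes, or as overlapping and adjacent genes. *ESR1*, *RXRA* and *RARB* under treatment, *KRT19*, *SPDEF* and the *FKBP5* and *ZBTB16* levels between clones were named after their values were seen. Results of some other receptor genes that this rule names are not reported here.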

Additional observations from a re-analysis of the deposited data

Results flagged for a closer look

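In 1 of 54 sets of 4 libraries (9 genes in 6 groups), the lowest or highest library stood apart from the rest by Dixon's criterion, where chance gives about 1 in 20, or 2.7 sets. It was *PPARG* in DMSO-treated Clone 35, where replicate 3 was at 1.238 CPM and the others at 1.797, 1.861 and 1.907 CPM, a gap of 0.836 of the range. *PPARG* has 3 to 17 counts in a library, with a counting error of 33.3%.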

How the results depend on the processing

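The counting error of a single library is largest for *PPARG* (33.3%), followed by *NR3C1* (7.98%), *NR2F6* (7.46%) and *ESRRA* (7.26%). The treatment changes over the 3 clones were estimated from 24 libraries, so the error of 1 library is not the error of those changes. All clones come from 1 cell line and replicates share a day. Over the 3 clones, 123 genes passed for dTAG-13. This became 521 with the replicate block, 197 without the filter, 1 without Clone 28, 37 without Clone 35, 37 without Clone 39, 64 at a threshold of 0.05 and 66 to 149 with 1 library left out. Of the 9 genes 0 passed, and 1 did with the replicate block in edgeR and in DESeq2. With the block, 177 genes passed without Clone 28, and of the 9 genes 0 passed without Clone 28 or without Clone 35. In Clone 28, 12 genes passed, and 263 with the replicate block, 7 with RLE scaling, 22 with library totals, 87 without the filter, 23 with at least 10 counts in every library, 4 with the clone's own libraries, 34 in DESeq2 and 2 to 28 with 1 library left out. In Clone 35 the count of 0 became 21 with the block, 4 without the filter and 1 in DESeq2, and in Clone 39 it became 16, 2 and 1, and 0 to 1 with 1 library left out. The difference in response went from 0 genes to 1 with the block and 6 without the filter. For DMSO levels, 1173 genes passed between Clones 35 and 28, and 2664 with the replicate number as a term shared by the clones. That term takes a number to mean the same in every clone, which is not stated. Of the 9 genes 4 passed between Clones 39 and 28 and 2 to 4 with 1 library left out (2 without Clone 39 DMSO replicate 4). For replicate numbers, 8306 genes and 5 of the 9 passed. The genes became 4321 in dTAG-13 libraries alone, 5251 without Clone 28 and 5239 in DESeq2, and the 9 genes gave 3 without the filter, 2 in DMSO alone, 2 in dTAG-13 alone, 3 without Clone 28 and 3 in DESeq2. *PGR* and *RARA* passed in each of these fits. The counts of all genes without the filter and in DMSO alone are not given here. *NR3C1* was at 0.0068 in replicates 3 and 4 against 1 and 2, and its value changed sign in some fits with 1 library left out (-0.013 to 0.034). The test of the 4 numbers passed for it in 2 of those 24 fits, and without Clone 39 dTAG-13 replicate 2 it passed with a value of -0.0069 (adjusted p = 0.0846). The cause of these shifts was not tested.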
